A study of Mus musculus with 6 samples.

Results

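The imprinted Dlk1-Dio3 locus of mouse chromosome 12 carries a dense run of miRNA hairpins, the miR-379 to miR-410 cluster, and 8 of its miRNAs were followed here across the zones of the growth plate. They were mmu-miR-379, mmu-miR-299*, mmu-miR-329, mmu-miR-494, mmu-miR-300, mmu-miR-487b, mmu-miR-382 and mmu-miR-154, taken by these exact names among the 690 miRNAs of the array. Cartilage was microdissected from the femoral growth plate of C57BL/6 mice aged 12 days, from the proliferative zone (2 arrays), the prehypertrophic zone (2 arrays) and the hypertrophic zone (2 arrays), with no treatment or mutation named for any of them. Each of the 6 one-colour arrays was hybridised with 100 ng of RNA, and 5 growth plates were pooled for it. The labels do not say which animals entered which pool, so p-values measure only the spread between these 6 arrays.

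In the growth plate, columns of dividing chondrocytes in the proliferative zone stop dividing as they reach the prehypertrophic zone, and then enlarge in the hypertrophic zone, next to vessels and forming bone. A miRNA guides a silencing complex to messenger RNAs through its seed, the bases near its 5′ end. The miRNAs of the Dlk1-Dio3 locus are made from long noncoding RNAs of the maternal chromosome, while the paternal chromosome gives the protein-coding genes Dlk1, Rtl1 and Dio3. In neurons and muscle the miR-379 to miR-410 cluster is known as a target of Mef2 transcription factors, and in rat neurons it is needed for activity-dependent growth of dendrites.

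The mature sequences show that these miRNAs are neighbours in the genome but not copies of one another. In the RefSeq annotation of GRCm38.p6 the cluster, from the miR-379 to the miR-410 hairpin, spans chr12:109709060-109743795, which is 34.7 kb with 35 hairpins on the plus strand. Mature sequences of 7 of the 8 miRNAs were found in the RefSeq table, with arms assigned from the names that version 14 of miRBase used. They are printed 5′ to 3′ with the seed, bases 2 to 8, in capitals.
miR-379: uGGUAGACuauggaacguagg
miR-299*: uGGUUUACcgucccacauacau
miR-329: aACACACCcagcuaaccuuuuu
miR-494: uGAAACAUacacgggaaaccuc
miR-300: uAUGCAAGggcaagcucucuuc
miR-382: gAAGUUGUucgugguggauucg
miR-154: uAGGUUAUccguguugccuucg

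Each of the 7 had a seed of its own. Among the 1738 mature miRNAs of the table, miR-1193-5p shared the seed of miR-379 and miR-362-3p that of miR-329, and none shared the seed of the other 5. On the plus strand, mature miR-379 lies at chr12:109709065-109709085, miR-299* at chr12:109710644-109710665, miR-329 at chr12:109713541-109713562 and miR-494 at chr12:109715367-109715388. Further along lie miR-300 at chr12:109724363-109724384, the hairpin of miR-487b at chr12:109727333-109727414, miR-382 at chr12:109733781-109733802 and miR-154 at chr12:109738438-109738459. The miR-154 hairpin lies within the noncoding RNA gene Mirg, and the other 7 hairpins overlap no annotated gene other than a miRNA. Sequence likeness bears on probe cross-hybridisation: the closest other mature miRNA to miR-300 was miR-381-3p, with 3 mismatches, whereas the other 6 had 7 to 9 mismatches to their closest one. By its own brightest probe miR-381 was well above background on no array. What share of the miR-300 signal came from miR-381 was not tested.

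The miRNAs fell into a group of 5 that was low in the hypertrophic zone and a group of 3 that passed no test. miR-379, miR-299*, miR-329, miR-382 and miR-154 were 2.15-fold to 3.0-fold lower in hypertrophic than in proliferative cartilage, a bound for miR-154, with prehypertrophic values in between. miR-494, miR-300 and miR-487b differed by at most 0.33 on the log2 scale between these zones. Of the drop in the 5 miRNAs, 60.7% to 76.1% was owed to the first proliferative array. Without that array the differences ran from -0.66 for miR-379 to -1.25 for miR-329 on the log2 scale. Levels below are scaled signals: the mean processed signal of the brightest probe's spots on an array, scaled to the array's 75th percentile over 342 probes well above background on all arrays. Fold changes and tests use log2 of these values, and levels of different miRNAs are not set against each other because probes differ in brightness.

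miR-329, which in rat neurons takes part in the growth of dendrites after activity, had the smallest hypertrophic-to-proliferative adjusted p of the 8. Its scaled signal was 96.4 and 60.2 on the first and second proliferative arrays, 34.3 and 39.1 on the prehypertrophic arrays and 25.5 and 25.3 on the hypertrophic arrays. Every array of a later zone lay below every array of the zone before it. On the log2 scale miR-329 averaged 4.67 ± 0.01 in hypertrophic and 6.25 ± 0.48 in proliferative cartilage (SD, n = 2 each), a difference of -1.59 (SE 0.29, limma adjusted p = 0.0039).

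miR-379 and miR-299*, the first miRNAs of the cluster, followed the same order of zones with a wider proliferative pair. The miR-379 signal was 116.9 and 43.0 on the proliferative, 38.7 and 34.1 on the prehypertrophic and 25.9 and 28.5 on the hypertrophic arrays. Its second proliferative array lay close to the prehypertrophic pair, while the first stood 2.72-fold above the second. miR-379 averaged 4.76 ± 0.10 in hypertrophic and 6.15 ± 1.02 in proliferative cartilage on the log2 scale (SD, n = 2 each), a difference of -1.38 (SE 0.40, limma adjusted p = 0.0393). The signal of miR-299*, which in human breast cancer cells as miR-299-5p targets osteopontin, was 114.3 and 58.6 on the proliferative, 46.5 and 49.9 on the prehypertrophic and 32.6 and 31.5 on the hypertrophic arrays. Again the zones did not overlap, and the first proliferative array was the highest. It averaged 5.0 ± 0.04 in hypertrophic and 6.36 ± 0.68 in proliferative cartilage (log2, SD, n = 2 each), a difference of -1.35 (SE 0.32, limma adjusted p = 0.0178).

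miR-382 and miR-154, from the distal end of the stretch, were dim, and the hypertrophic values of miR-154 are bounds. miR-382 had 42.3 and 23.7 on the proliferative, 15.9 and 16.7 on the prehypertrophic and 13.9 and 15.6 on the hypertrophic arrays, the last just above the floor of 12.66 scaled units below which signals were not ordered. It averaged 3.88 ± 0.12 in hypertrophic and 4.98 ± 0.59 in proliferative cartilage (log2, SD, n = 2 each), a difference of -1.10 (SE 0.31, limma adjusted p = 0.0378). The prehypertrophic and hypertrophic arrays were close together. miR-154, raised in fibrotic human lung, had 46.9 and 21.1 on the proliferative and 18.7 and 15.7 on the prehypertrophic arrays. On the hypertrophic arrays its signals of 9.0 and 9.1 were not well above background. Both were set to the floor, which makes their spread 0 by construction, and miR-154 was therefore at least 2.49-fold lower in hypertrophic than in proliferative cartilage (log2 difference -1.31, SE 0.35, limma adjusted p = 0.0316).

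**Figure D1:**
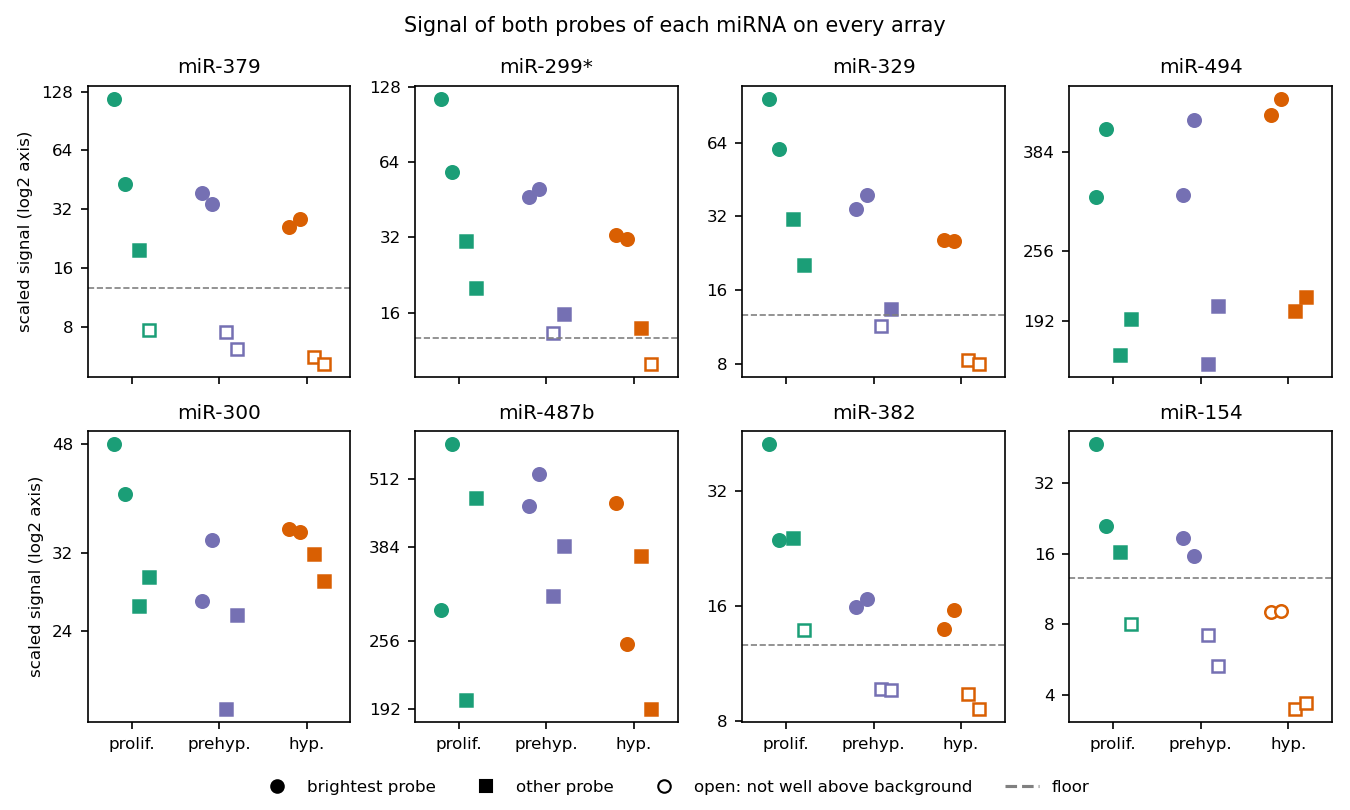
Scaled signal (log2 axis, arbitrary units) of the brightest probe (circles) and the other probe (squares) of each of the 8 miRNAs on the 2 proliferative, 2 prehypertrophic and 2 hypertrophic arrays, the first array of a zone on the left, with open points for signals not well above background and a dashed line at the floor of 12.66 where the panel reaches it. By the brightest probe of miR-379, miR-299*, miR-329, miR-382 and miR-154, every array of a later zone lies below the zone before it and the first proliferative array is the highest.

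The other 3 miRNAs did not share this pattern. miR-494 had 319.9 and 422.2 on the proliferative, 321.9 and 437.5 on the prehypertrophic and 447.1 and 476.8 on the hypertrophic arrays. The hypertrophic arrays lay above both others, by a narrow margin, and the lower zones overlapped. Its difference of hypertrophic minus proliferative was 0.33 on the log2 scale, with a 95% interval of -0.28 to 0.94 (limma adjusted p = 0.558). miR-487b, one of the cluster's miRNAs whose inhibition raised vessel growth after ischaemia in mouse muscle, had 292.5 and 594.7 on the proliferative, 456.5 and 523.0 on the prehypertrophic and 462.6 and 253.1 on the hypertrophic arrays. Its proliferative arrays spanned nearly its whole range, and unlike for the 5 miRNAs above the first of them was the lower. The difference was -0.29, with an interval of -1.12 to 0.55 (limma adjusted p = 0.752).

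miR-300 had 47.9 and 39.8 on the proliferative, 26.8 and 33.6 on the prehypertrophic and 35.0 and 34.6 on the hypertrophic arrays. Both later zones lay below the proliferative arrays, the prehypertrophic zone lowest. The hypertrophic minus proliferative difference was -0.33, with an interval of -0.90 to 0.25 (limma adjusted p = 0.538). For each of these 3 miRNAs the interval includes differences of either sign. Whether they changed less than the 5 others was not tested.

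Set against the whole array, 5 of the 8 miRNAs were called lower in the hypertrophic than in the proliferative zone, where 20 of 226 tested miRNAs were (8.85%). The 20 include these 5. The 8 were chosen with earlier results of these data known, so the shares given here and below are a description and not a test. None of the 8 was called higher, against 13 of 226 (5.75%). Here a call is a limma p adjusted by Benjamini-Hochberg over all tested miRNAs of a contrast that lies under 0.05. The hypertrophic minus proliferative difference had a median of -1.21 over the 8 and 0.0 over the 226, of which 114 were below 0. Arrays of the zones did not overlap, with hypertrophic below proliferative, for 6 of 8 against 61 of 226 (27.0%), and with hypertrophic above for 1 of 8, miR-494, against 45 of 226 (19.9%). The sign of the 5 falls held under every alternative processing tried, but the calls did not. None of the 8 was called with the 75th percentile over all probes, where 11 of 226 were called in either direction, or median scaling (12 of 226). The same held for no scaling (15 of 226), 2 times the floor (8 of 226) and no filter on dim probes (1 of 690). All 8 passed the filter for testing, which asks for a signal well above background on both arrays of any 1 zone. RNA came from whole pieces of tissue, in which fewer cells of a type and less RNA per cell cannot be told apart.

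**Figure D2:**
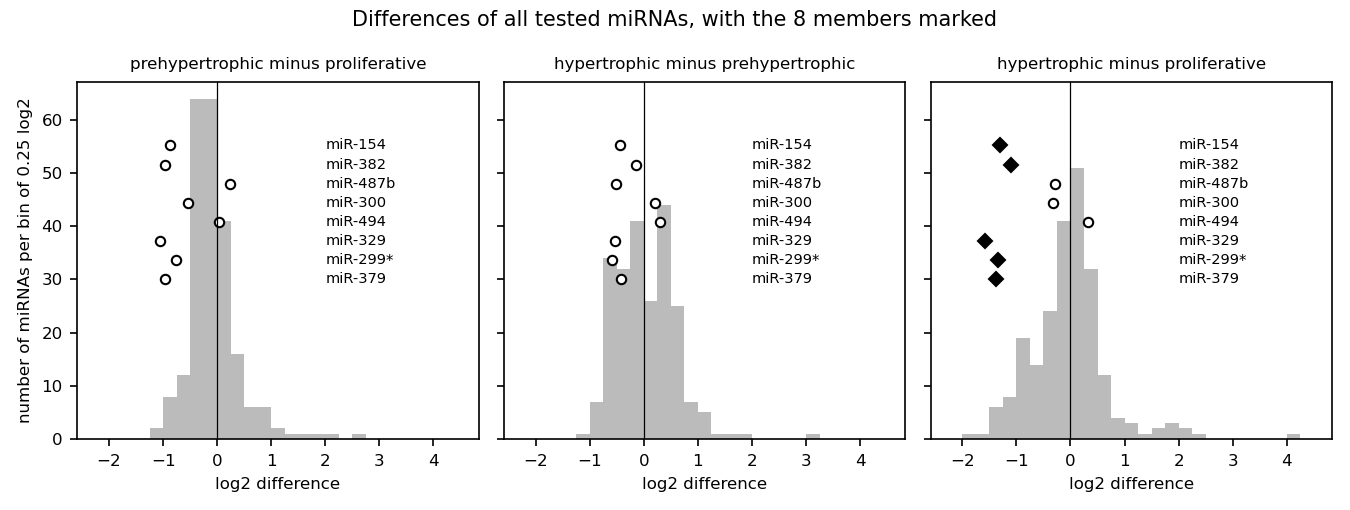
Histograms of the log2 difference over the 226 tested miRNAs (x axis, log2 units; y axis, number of miRNAs per bin) for the 3 comparisons of zones, with a point for each of the 8 miRNAs at a height that only separates the names, filled where limma's adjusted p is under 0.05. In hypertrophic minus proliferative the 8 run from -1.59 (miR-329) to 0.33 (miR-494), and the 5 filled points lie at -1.10 or below.

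Between prehypertrophic and proliferative cartilage no member passed the test. The 5 miRNAs differed by -0.77 (miR-299*) to -1.06 (miR-329), with limma adjusted p from 0.0958 for miR-329 to 0.304 for miR-299*. All 5 had an unadjusted limma p under 0.05, and 13 of the 226 tested miRNAs were lower at that unadjusted level. After adjustment none of the 226 was called lower (0.0%) and 5 were called higher (2.21% in either direction), so the count of 0 members equals the background for falls. Arrays of the zones did not overlap, with prehypertrophic below proliferative, for 6 of 8 miRNAs, the 5 and miR-300, against 55 of 226 (24.3%). The median difference was -0.82 over the 8 and -0.14 over all tested. The differences of miR-494 (0.03, 95% interval -0.58 to 0.64), miR-487b (0.23, -0.61 to 1.07) and miR-300 (-0.54, -1.11 to 0.03) had limma adjusted p of 0.991, 0.817 and 0.427. This comparison shares the proliferative arrays with the one above.

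Between hypertrophic and prehypertrophic cartilage none of the 8 was called, with no unadjusted limma p under 0.05 either. At that unadjusted level 34 of the 226 tested miRNAs differed, 15 of them lower in the hypertrophic zone. The differences of the 5 miRNAs were -0.42 for miR-379, -0.59 for miR-299*, -0.53 for miR-329, -0.15 for miR-382 and -0.44 for miR-154, for which the fall is at least 1.35-fold. Their limma adjusted p ran from 0.278 to 0.743. The hypertrophic arrays lay in slide row 1 and the prehypertrophic arrays in row 2, so only the proliferative pair spans both rows. With the row as a block these differences were -1.86, -1.55, -1.21, -0.98 and -1.59 for the same miRNAs (limma adjusted p 0.0978 to 0.121). The prehypertrophic minus proliferative differences were then -0.24, -0.28, -0.72, -0.54 and -0.30, the same as without the first proliferative array. With that block the later step was the larger, but a row effect and the excess of that 1 array cannot be told apart. Over the whole array 3 of 226 were called (1.33%), none of them lower. The hypertrophic arrays lay below the prehypertrophic ones without overlap for the 5 miRNAs, against 74 of 226 (32.7%), and above them for miR-494 (0.30, 95% interval -0.31 to 0.91) and miR-300 (0.21, -0.36 to 0.79), against 77 of 226 (34.1%). For miR-487b the difference was -0.51 (-1.35 to 0.32). The median was -0.43 over the 8 and -0.03 over all tested.

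Over all 6 arrays the 5 miRNAs kept 1 order of zones. Every proliferative array above every prehypertrophic array, and these above every hypertrophic array, was found for miR-379, miR-299*, miR-329, miR-382 and miR-154, 5 of 8, against 22 of 226 tested miRNAs (9.73%). The opposite order was found for 0 of 8, against 6 of 226 (2.65%). In an F test for any difference among the 3 zones only miR-329 was called (limma adjusted p = 0.0115), 1 of 8 against 18 of 226 (7.96%). The F test's adjusted p was 0.0549 for miR-299*, 0.078 for miR-382, 0.084 for miR-154 and 0.107 for miR-379 (limma), and 0.356 to 0.628 for the other 3. Along the chromosome the 5 miRNAs did not form 1 block: miR-494, miR-300 and miR-487b lie between miR-329 and miR-382.

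**Figure D3:**
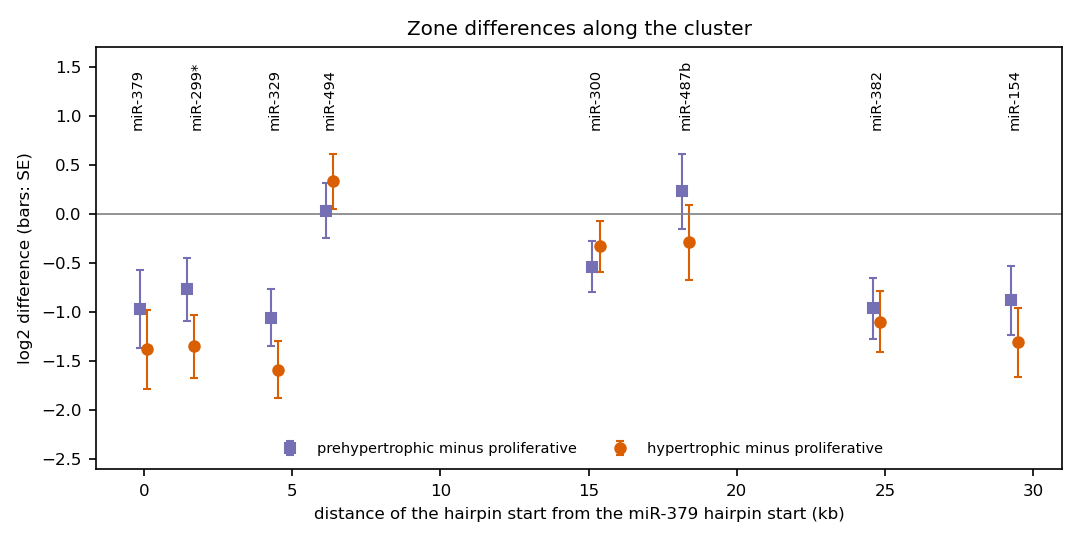
Log2 difference (y axis, bars are the SE) of hypertrophic minus proliferative (circles) and prehypertrophic minus proliferative (squares) cartilage for each of the 8 miRNAs, against the distance of its hairpin from the miR-379 hairpin (x axis, kb). The hypertrophic minus proliferative values of the 3 hairpins from 0.0 to 4.42 kb and of the 2 at 24.71 and 29.37 kb lie at -1.10 or below, and those of the 3 between them (6.26 to 18.27 kb) at -0.33 to 0.33.

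The first proliferative array carried most of the difference. For each miRNA, the height of each proliferative array above the hypertrophic mean was taken on the log2 scale, and the first array's height was divided by the sum of both. For miR-379 the first array stood 2.10 and the second 0.66 above the hypertrophic mean, a share of 76.1%. The share was 68.9% for miR-382 (1.52 and 0.69) and 67.8% for miR-299* (1.83 and 0.87). For miR-329 it was 60.7% (1.92 and 1.25). For miR-154 the heights of 1.89 and 0.74 are bounds set by the floor, with a share of 71.8%, and without a floor, an alternative chosen after seeing the data, they were 2.37 and 1.22, a share of 66%. All miR-154 differences from the hypertrophic zone given below are bounds in the same way. For miR-300 the heights were 0.46 and 0.19, a share of 70.5% of a difference that passed no test. No share is defined for miR-494, where both proliferative arrays lay below the hypertrophic mean (-0.53 and -0.13), or for miR-487b, where they lay on either side (-0.23 and 0.80).

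The second proliferative array by itself still lay above both hypertrophic arrays for 7 of the 8 miRNAs, all but miR-494. That is not rare here, since 102 of 226 tested miRNAs (45.1%) did the same. It lay above both prehypertrophic arrays for 7 of 8 as well, against 118 of 226 (52.2%). The first proliferative array was the highest of the 6 for 6 of 8, against 55 of 226 (24.3%). Over the 8 miRNAs the first proliferative array exceeded the second by a median of 0.76 on the log2 scale, whereas over all tested miRNAs the median was -0.11. It was the higher of the pair for 6 of 8, against 95 of 226 (42.0%). The median absolute difference between the arrays of a zone was 0.90 (proliferative), 0.19 (prehypertrophic) and 0.07 (hypertrophic) for the 8 miRNAs. For all tested miRNAs it was 0.44, 0.20 and 0.28 in the same zones. The limma fit takes 1 spread per miRNA for all zones, although the 8 had their widest median difference in the proliferative zone.

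Without the first proliferative array the hypertrophic minus proliferative difference was -1.25 for miR-329. It was -0.87 for miR-299*, -0.74 for miR-154, -0.69 for miR-382 and -0.66 for miR-379. Without the second proliferative array it ran from -1.52 for miR-382 to -2.10 for miR-379 among the 5. In these fits the lone proliferative array is assumed to vary as the arrays of the other zones do. Without either hypertrophic array none of the 8 was called, and the calls over the whole array fell to 2 and 1 of 226. The prehypertrophic comparison turned on the same array: without the second proliferative array the 5 miRNAs differed by -1.25 to -1.69 in prehypertrophic minus proliferative. Without the first the same 5 differed by -0.24 to -0.72.

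**Figure D4:**
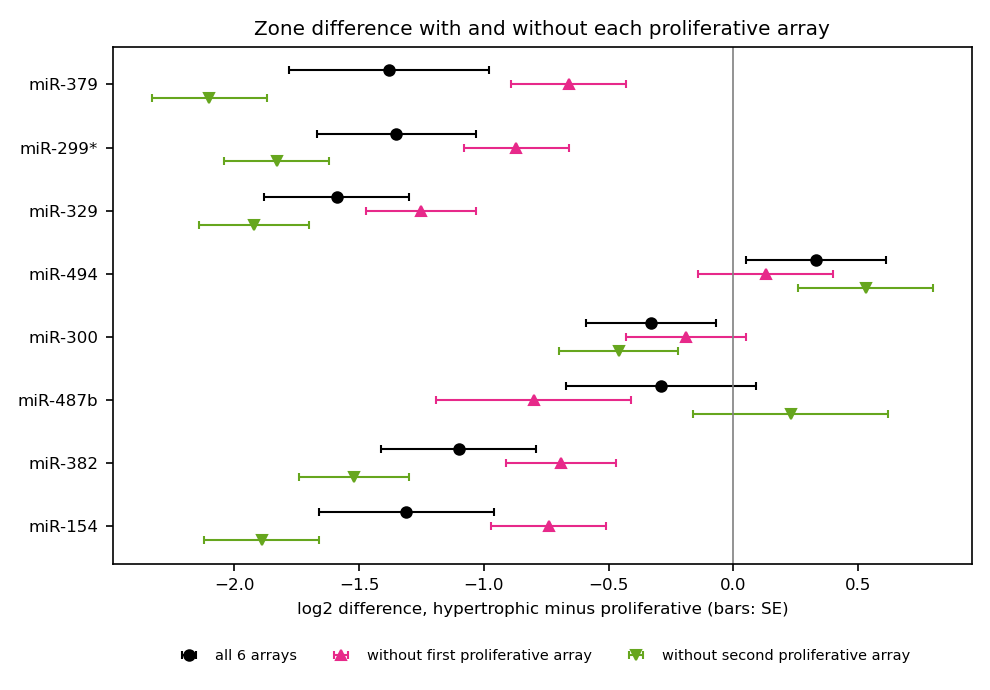
Hypertrophic minus proliferative log2 difference (x axis, bars are the SE) of each of the 8 miRNAs with all 6 arrays (circles), without the first proliferative array (upward triangles) and without the second (downward triangles). The 5 falling miRNAs lie nearer 0 without the first proliferative array, from -1.25 for miR-329 to -0.66 for miR-379, and farther from 0 without the second.

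Both probes of each miRNA gave a reading of the same RNA. The brightest probe was well above background on 46 of 48 array readings over the 8 miRNAs and the other probe on 28 of 48. The other probe of miR-299* gave 30.9 and 20.1 on the proliferative, 13.2 and 15.8 on the prehypertrophic and 13.9 and 10 on the hypertrophic arrays, and that of miR-329 gave 31.3 and 20.2, 11.4 and 13.4, and 8.3 and 8.0 in the same zones. For both miRNAs the hypertrophic arrays lay below the proliferative ones by this probe as well. The hypertrophic signals of the miR-329 probe were not well above background, so it gave a level at least 1.99-fold lower in hypertrophic cartilage, and 1 of the 2 hypertrophic signals of the miR-299* probe was well above background. For miR-382 the other probe gave a level at least 1.44-fold lower in hypertrophic cartilage, where its signals of 9.4 and 8.6 were not well above background, nor was its second proliferative signal of 13.8.

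The other probes of miR-379 and miR-154 were well above background on the first proliferative array alone. That of miR-379 gave 19.7 there and 7.7 on the second proliferative array, with 5.2 to 7.5 on the later zones. That of miR-154 gave 16.3 and 8.0 on the proliferative arrays and 3.5 to 7.2 on the later zones. For these 2 miRNAs the second probe thus adds no measured level outside 1 array. The probes of miR-300 disagreed in sign: the other probe gave 31.9 and 28.9 on the hypertrophic arrays and 26.3 and 29.3 on the proliferative arrays, a difference of 0.13 against -0.33 by the brightest probe. Those of miR-494 (0.2 by the other probe) and miR-487b (-0.21) had the same sign by both.

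The arrays lay on 1 slide, and their titles number them in runs from 13 to 15 and from 16 to 18, each with 1 array per zone. No label calls a run or a slide row a batch. Within the run that holds the first proliferative array, hypertrophic minus proliferative was -2.04 for miR-379, -1.86 for miR-299*, -1.93 for miR-329, -1.44 for miR-382 and -1.89 for miR-154. Within the other run it was -0.73, -0.85, -1.24, -0.77 and -0.74 for the same miRNAs. For all 5 every hypertrophic array lay below every proliferative array, so any pairing of arrays gives a negative sign. The larger size fell in the run of the first proliferative array. With the run as a block all 5 stayed past the threshold, at limma adjusted p of 0.0132 to 0.0456. Over the whole array 46 of 226 miRNAs were then called in either direction, against 33 of 226 without the block. Both hypertrophic arrays lay in slide row 1 with the first proliferative array, so a within-row difference rests on that array and equals the value without the second proliferative array. Both prehypertrophic arrays lay in row 2, so row and zone cannot be told apart between the hypertrophic and prehypertrophic zones except through the proliferative pair. miR-487b, picked out after its values were seen, was lower on the array of the first run in every zone (by 1.02 proliferative, 0.20 prehypertrophic and 0.87 hypertrophic), as were 73 of 226 tested miRNAs (32.3%). Averaged over the zones, its difference between the runs ranked 5 of 226 from the most negative.

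The rest of the cluster was mostly below detection. Of 54 other mature miRNAs listed for the miR-379 to miR-410 cluster, 44 had probes, 39 of these were well above background on no array, and 2 could be tested. miR-299, the opposite arm of the miR-299* hairpin, had 26.6 and 26.2 on the proliferative, 20.9 and 19.4 on the prehypertrophic and 27.3 and 20.8 on the hypertrophic arrays. Unlike miR-299* it showed no order of zones (hypertrophic minus proliferative -0.15, SE 0.26, limma adjusted p = 0.807), and the difference between the arms was not tested. miR-666-5p had 44.6 and 31.2 on the proliferative, 48.5 and 16.2 on the prehypertrophic and 36.3 and 15.5 on the hypertrophic arrays, with a difference of -0.66 (SE 0.51, limma adjusted p = 0.523). Neither was called in any comparison of zones, and their median hypertrophic minus proliferative difference was -0.40. miR-410, at the distal end of the cluster, was well above background on 2 arrays and was not tested. Its signals were 52.1 and 15.2 on the proliferative, 14.8 and 12.4 on the prehypertrophic and 6.0 and 8.7 on the hypertrophic arrays, and the first proliferative array stood far above the other 5. miR-411 was well above background on the first proliferative array alone, at 26.7 against 8.6 on the second. miR-323-3p was well above background on 1 hypertrophic array alone.

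The upstream miRNAs of the same locus, around miR-127 and miR-434, gave 9 tested members of 25 with probes. Of these, 3 were called lower in the hypertrophic than in the proliferative zone, against 20 of 226 tested miRNAs (8.85%). None was called higher, against 13 of 226 (5.75%), and the median was -0.14, against 0.0 over all tested. The 3 were miR-127, which lies antisense to Rtl1 (-1.78, limma adjusted p = 0.00169), miR-434-3p (-1.39, 0.0118) and miR-337-5p (-1.17, 0.0316). miR-770-3p (0.05, limma adjusted p = 0.933) and miR-370 (0.43, 0.538) were not called. In the other comparisons of zones none of the 9 was called.

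The tested miRNAs outside the 8 whose pattern was most like their mean came partly from that region. With each miRNA centred over the 6 arrays, the mean of the 8 was 0.74 and 0.25 on the proliferative, -0.17 and -0.06 on the prehypertrophic and -0.35 and -0.41 on the hypertrophic arrays (log2). Pearson's r with this mean, over 6 arrays of 3 zones, was 0.99 for miR-337-5p, 0.989 for let-7e, 0.982 for miR-127, 0.978 for miR-434-3p and 0.975 for miR-125a-5p. These values are a description, since the arrays of a zone share their tissue and all share the scaling. Within the 8, r with the mean of the others was 0.92 to 0.99 for the 5 falling miRNAs, 0.73 for miR-300, -0.18 for miR-487b and -0.66 for miR-494. The 5 were grouped by their order of zones and make up most of that mean, so their high r restates the grouping.

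The cartilage miRNAs miR-140, miR-140*, miR-455 and miR-455* were well above background on all 6 arrays, with summed scaled signals of 10367 and 6461 on the proliferative, 6824 and 6922 on the prehypertrophic and 3910 and 4912 on the hypertrophic arrays. Their sum was highest on the first proliferative array through miR-140 and miR-140*, whereas miR-455 had 830.1 and 827.2 on the proliferative arrays and miR-455* had 28.0 and 24.8 there. In hypertrophic against proliferative cartilage 0 of the 4 was called (median -0.77). Of 6 markers of fibroblasts, perichondrium and smooth muscle 4 were tested and 0 called (median -0.73), with sums of 1409 and 1000 on the proliferative, 1165 and 1204 on the prehypertrophic and 642 and 813 on the hypertrophic arrays. On none of the 6 arrays did miR-143 or miR-145 of that list give a signal well above background.

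The 8 blood markers with probes, of which 5 were well above background on no array, summed to 6 and 21 on the proliferative, 28 and 29 on the prehypertrophic and 251 and 279 on the hypertrophic arrays, of which miR-451 of red blood cells made up 226.4 and 254.0 on the hypertrophic arrays. miR-451 alone of these was called higher in the hypertrophic than in the proliferative zone (4.18, limma adjusted p = 9.57e-07). The endothelial miR-126-3p was at least 2.75-fold higher in hypertrophic than in proliferative cartilage. All 4 skeletal muscle markers and 3 of 4 nerve markers were well above background on no array, and of 6 epithelial markers 2 were tested and 0 called. What part the mix of cells had in the differences of the 8 miRNAs was not tested.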

How the data were processed

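Values were the deposited background-subtracted intensity of each spot, made by Feature Extraction 10.7.3.1 per the file headers. The authors' deposited log2 table held, for each miRNA, log2 of its summed signal (values under 1 set to 1) less 1 constant per array, with departures of at most 1.3e-06. Its column medians were -4.399 and -4.254 (proliferative), -4.46 and -4.455 (prehypertrophic) and -4.689 and -4.943 (hypertrophic). That table was tried as an alternative.

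Each array held 13800 spots of 1928 probes for 690 miRNAs. Outlier spots (384 to 515 per array) were left out, none was saturated, and 24.2% to 27.9% of spots were well above background. Spots of a probe were averaged, and a probe was well above background where most of its spots were flagged so. Arrays were scaled to the 75th percentile over the 342 probes above background on all arrays, each array's lowest scaled signal above background was found and the median of the 6, 12.66 (log2 value 3.66), was set as a floor, and log2 was taken. The probe with the highest mean stood for its miRNA. Where no array of a zone was well above background only a bound is given, against whichever was highest of the floor, the array's lowest signal above background or the probe's own signal. limma 3.58.1 in R 4.3.3 fitted zone over 6 arrays for 226 miRNAs (3 residual and 7.83 prior degrees of freedom), with Benjamini-Hochberg adjustment within a contrast and a threshold of 0.05, after a test on simulated data. Alternatives varied scaling, floor, filter, probe, outliers, values, blocks and arrays. Normexp (offset 50) used the median spot signal in place of the planned mean. The members and lists were chosen with earlier results of these data known. Named are the 8 miRNAs, the 5 most like their mean, and up to 4 of the brightest tested members of each cluster list. miR-410, miR-411, miR-323-3p, miR-451, miR-126-3p, miR-126-5p and miR-124 were chosen after their values were seen. The reading of miR-381 was also added after seeing the data. The number of arrays limits the precision.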

Additional observations from a re-analysis of the deposited data

How the results depend on the processing

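The 5 calls between the hypertrophic and proliferative zones depended on the processing. Their count was 0 with the 75th percentile over all probes, median scaling, no scaling, no filter on dim probes or 2 times the floor. It was 1 with quantile normalization (19 of 226 over all tested miRNAs) or the mean of all probes (20 of 226). It was 2 with the authors' deposited table (20 of 226) and 3 with outlier spots kept (24 of 226). Leaving out 1 array in turn gave 0 to 5. The count between the prehypertrophic and proliferative zones ran from 0 to 5 when 1 array was left out, and that between the hypertrophic and prehypertrophic zones was 0 under every alternative. The F test's count of 1 was 0 with 2 times the floor, the 75th percentile over all probes, the mean of all probes, median scaling, no filter, no scaling or quantile normalization. It was 5 with 0.5 of the floor, 4 with only miRNAs well above background on all arrays and 5 with the slide row as a block, and 0 to 5 with 1 array left out. Over all tested miRNAs the calls between the hypertrophic and proliferative zones ran from 1 to 46 around 33, those between the prehypertrophic and proliferative zones from 0 to 10 around 5, those between the hypertrophic and prehypertrophic zones from 1 to 6 around 3, and those of the F test from 1 to 33 around 18. The cause of these changes was not tested. The direction of the 5 falls held under every alternative run: -2.10 to -0.66 for miR-379, -1.83 to -0.76 for miR-299*, -1.92 to -0.82 for miR-329, -1.52 to -0.37 for miR-382 and -2.04 to -0.44 for miR-154. The call held in 14 of 21 alternatives for miR-329, 10 of 21 for miR-299* and miR-382, 8 of 21 for miR-379 and 9 of 20 for miR-154. miR-154 was not tested under the filter on all arrays. Signs turned only for the 3 miRNAs that passed no test. Hypertrophic minus proliferative was 0.16 for miR-300 and 0.20 for miR-487b with no scaling, which by itself moved the median of all miRNAs by 0.48, and for miR-487b 0.23 with the slide row as a block and -0.80 to 0.23 with 1 array left out. Prehypertrophic minus proliferative was -0.17 for miR-494 and -0.28 for miR-487b with the row block, and -0.19 to 0.25 and -0.28 to 0.74 with 1 array left out. Hypertrophic minus prehypertrophic was -0.05 for miR-300 and 0.51 for miR-487b with the row block. Choosing the brightest probe by mean signal was added after seeing the data. The labels give no replicate numbers. Pairing arrays by their runs of title numbers, which no label calls a batch, left 5 of the 8 called between the hypertrophic and proliferative zones. With that pairing 46 of the 226 tested miRNAs were called. Dim signals limit miR-382 and miR-154, which lie near the floor in the hypertrophic zone.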
